A study of Mus musculus with 20 samples.

Results

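The late effect of type I interferon was described as the difference between 2 arrays: CD8 T cells cultured for 72 h with antigen, B7-1 and type I interferon (labelled Ag-B7+IFNa/b) and CD8 T cells cultured for 72 h with antigen and B7-1 alone (labelled Ag-B7). They are 2 of the 20 arrays of the study, which follows CD8 T cells through their first days of stimulation and asks what a cytokine adds to antigen and costimulation. The cells of all groups came from OT-1 TCR transgenic C57Bl6 mice aged 6 to 8 weeks, whose transgenic receptor sees ovalbumin peptide presented by H-2Kb, and were CD44-low CD8 cells enriched from lymph nodes by removal of other cells. Both cultures contained latex microspheres coated with the peptide complex and B7-1, and both contained human IL-2; they differed by the addition of universal type I interferon. The other arrays used here were Ag-B7+IFNa/b at 24 h (1 array) and 48 h (3 arrays), Ag-B7 with IL-12 (IL12) at 72 h (1 array), Ag-B7 with the histone deacetylase inhibitor trichostatin A (TSA) at 72 h (1 array), and Ag-B7 at 24 h (1 array) and 48 h (4 arrays). No group was cultured with interferon but without antigen, so every interferon value is one in stimulated cells. Of 8251 named genes on the arrays, 6279 passed a filter on dim signals and were described.

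Type I interferons bind the receptor chains Ifnar1 and Ifnar2, whose kinases Jak1 and Tyk2 activate the factor ISGF3. Irf9 is its DNA-binding part, and ISGF3 binds the interferon-stimulated response element (ISRE) in the promoters of antiviral genes. In CD8 T cells that have met antigen, type I interferon is also known as a cytokine signal that supports cytolytic function and survival. Usp18 and the Socs proteins are feedback inhibitors of this pathway.

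With 1 array a side there is no replicate check and no test at 72 h, and a gene was counted as different when its normalised intensity differed at least 2-fold, that is by 1 or more on the scale log2(intensity + 46.4). Differences on this scale understate the change of dim genes, and precision is limited by how few arrays there are. On the Ag-B7+IFNa/b array 247 genes (3.93%) were at least 2-fold higher than on the Ag-B7 array and 224 genes (3.57%) were at least 2-fold lower, in all 471 genes (7.5%). The same number was counted between replicate arrays of 1 stimulated group at 48 h, where 311 to 630 genes (4.95% to 10.0%, 12 pairs of arrays) lay past 2-fold, so the total at 72 h was within what replicates give. Past 8-fold there were 9 higher genes and 1 lower gene at 72 h, and 0 to 9 genes, both ways together, between replicates. Of the 247 higher genes, 156 (63.2%) differed by more than any replicate pair of that gene did at 48 h, as did 94 (42.0%) of the 224 lower genes. Over all 6279 genes 764 did so. The higher and lower genes were chosen for large differences, which by itself raises these shares. The largest replicate difference of a gene is given below, for many of the genes named, as the error of single genes. The arrays were scaled to a common mean, and with scaling on 9 spike-in control probe sets instead the median difference over all genes was 0.52 in place of -0.04, with 998 genes past 2-fold higher and 58 lower, so each difference is relative to the other genes.

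**Figure D1:**
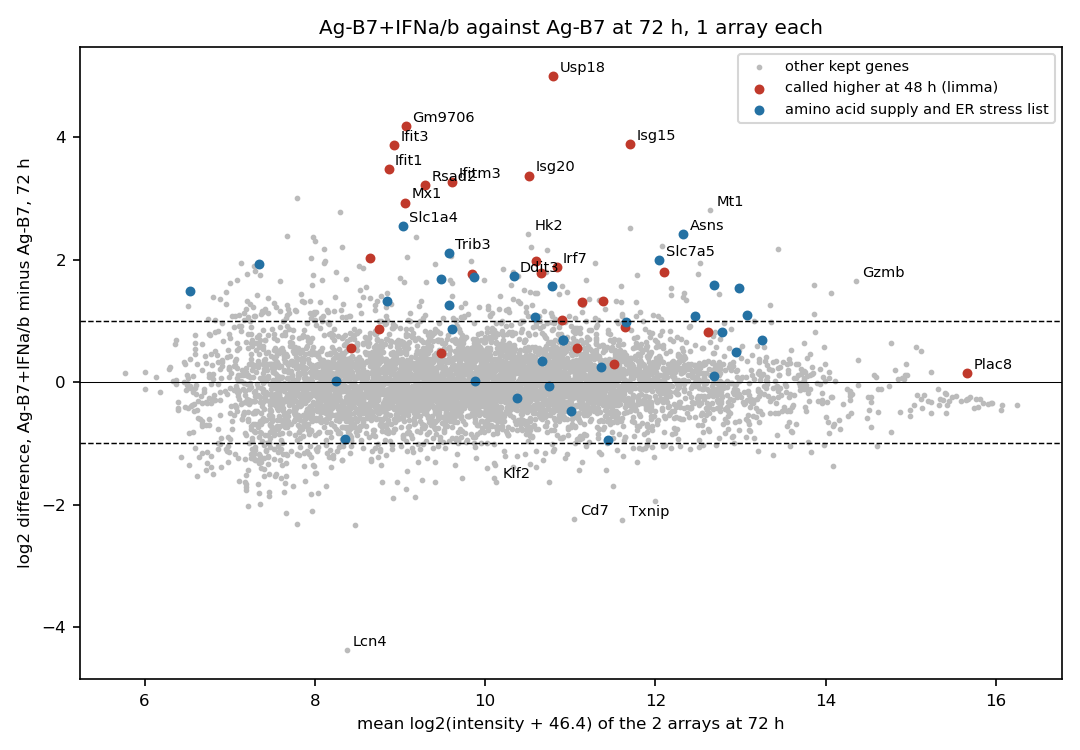
Log2 difference, Ag-B7+IFNa/b minus Ag-B7 at 72 h (vertical axis), against the mean log2(intensity + 46.4) of both arrays (horizontal axis) for 6279 genes, 1 array each. Red points are the genes called higher at 48 h, blue points the amino acid supply and endoplasmic reticulum stress list, and dashed lines mark 2-fold. Usp18 (5.00), Gm9706 (4.18), Isg15 (3.89), Ifit3 (3.87) and Ifit1 (3.48) are among the highest points, and Lcn4 lies lowest at -4.38.

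The promoters of the genes that the results turn on are shown first, as the 250 bases before the annotated start, in RefSeq's sequence of build GRCm38.p6, on the strand of the gene. Isg15, Ifit1, Ifit3 and Rsad2 were chosen because they were among the genes with the largest positive differences at 72 h and their windows hold the ISRE letters, GAAA and a further GAAA with any 2 bases between them, on either strand; these are in capitals. Isg15 is at chr4:156200819-156201068 (minus strand), Ifit1 at chr19:34640639-34640888 (plus strand), Ifit3 at chr19:34583279-34583528 (plus strand) and Rsad2 at chr12:26456453-26456702 (minus strand).
Isg15: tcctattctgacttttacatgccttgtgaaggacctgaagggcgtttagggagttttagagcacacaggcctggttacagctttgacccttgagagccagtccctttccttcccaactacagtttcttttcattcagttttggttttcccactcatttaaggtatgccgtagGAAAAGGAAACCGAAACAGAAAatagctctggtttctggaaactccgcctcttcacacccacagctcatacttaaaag
Ifit1: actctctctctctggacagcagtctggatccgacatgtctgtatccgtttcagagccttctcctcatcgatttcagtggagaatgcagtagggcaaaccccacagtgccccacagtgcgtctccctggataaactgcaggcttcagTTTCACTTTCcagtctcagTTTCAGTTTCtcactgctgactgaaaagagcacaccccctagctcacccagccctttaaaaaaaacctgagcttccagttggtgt
Ifit3: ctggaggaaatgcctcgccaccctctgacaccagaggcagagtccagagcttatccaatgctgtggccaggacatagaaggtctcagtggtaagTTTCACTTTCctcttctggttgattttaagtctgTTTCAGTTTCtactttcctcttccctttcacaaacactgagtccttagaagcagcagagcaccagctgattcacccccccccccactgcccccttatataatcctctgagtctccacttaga
Rsad2: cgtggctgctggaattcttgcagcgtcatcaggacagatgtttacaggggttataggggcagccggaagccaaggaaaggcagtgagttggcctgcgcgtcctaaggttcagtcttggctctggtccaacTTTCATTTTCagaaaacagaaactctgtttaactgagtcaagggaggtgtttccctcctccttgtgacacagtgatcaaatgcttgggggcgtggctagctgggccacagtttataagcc
Isg15 holds 3 overlapping matches within bases -78 to -57 from the start. Ifit1 holds 2 (first bases at -104 and -85), Ifit3 holds 2 (-156 and -122) and Rsad2 holds 1 (-120 to -111), all in the reverse orientation.

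A different set of letters, TGATGNAA on either strand, marks the element through which Atf4 and Ddit3 act on genes of the amino acid response. These letters were chosen after the values were seen. Asns, Atf3, Aars and Gars were at least 2-fold higher at 72 h and hold the letters upstream of the start. Asns is at chr6:7693210-7693459 (minus strand), Atf3 at chr1:191183334-191183583 (minus strand), Aars at chr8:111033592-111033841 (plus strand) and Gars at chr6:55037751-55038000 (plus strand), with the matches in capitals.
Asns: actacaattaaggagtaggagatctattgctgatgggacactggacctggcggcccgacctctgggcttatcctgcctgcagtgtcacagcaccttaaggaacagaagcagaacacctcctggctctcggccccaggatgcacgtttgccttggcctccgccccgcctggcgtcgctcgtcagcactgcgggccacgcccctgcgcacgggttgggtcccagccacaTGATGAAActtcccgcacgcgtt
Atf3: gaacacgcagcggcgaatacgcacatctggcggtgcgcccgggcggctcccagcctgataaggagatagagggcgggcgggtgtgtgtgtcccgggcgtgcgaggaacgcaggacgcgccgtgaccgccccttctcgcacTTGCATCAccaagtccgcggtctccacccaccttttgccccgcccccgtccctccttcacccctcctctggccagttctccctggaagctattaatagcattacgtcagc
Aars: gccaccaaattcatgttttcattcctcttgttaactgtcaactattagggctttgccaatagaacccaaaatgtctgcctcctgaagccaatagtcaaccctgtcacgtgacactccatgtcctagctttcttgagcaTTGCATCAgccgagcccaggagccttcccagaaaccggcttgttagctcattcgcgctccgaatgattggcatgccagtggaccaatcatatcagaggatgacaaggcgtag
Gars: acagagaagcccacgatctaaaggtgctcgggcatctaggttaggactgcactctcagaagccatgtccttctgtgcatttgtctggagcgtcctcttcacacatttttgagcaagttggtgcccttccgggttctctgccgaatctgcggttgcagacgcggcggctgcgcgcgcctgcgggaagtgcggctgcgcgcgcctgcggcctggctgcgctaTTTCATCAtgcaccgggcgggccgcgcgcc
Matches were counted in windows of 300 bases, from 250 before to 50 after the start. The ISRE letters were in 3.99% of all 27025 promoters and in 3.74% of the promoters of the genes described here. They were in 8 of 14 (57.1%) promoters of the genes higher at both 48 h and 72 h, in 7.29% of the 192 promoters found for the genes higher at 72 h and in 6.02% of the 166 found for the genes lower at 72 h. TGATGNAA was in 4.51% of all promoters, in 2.75% of those of the genes described here, in 8.85% of those of the genes higher at 72 h, in 3.01% of those of the lower genes and in 7 of 15 (46.7%) of the higher members of the amino acid list. The letters TTCNNNGAA, which STAT dimers bind, were in 9.55% of all promoters, in 8.42% of those of the genes described here, in 8.85% of those of the genes higher at 72 h, in 20 of the 166 of the lower genes and in 3 of 14 (21.4%) of those of the genes higher at both times. A match describes the sequence and does not show binding.

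Genes of the ISG15 system, a ubiquitin-like modifier and its enzymes, held the largest difference of the comparison. Usp18, the protease that removes ISG15 and also damps signalling at the interferon receptor, had an intensity of 10005 on the Ag-B7+IFNa/b array at 72 h and 269 on the Ag-B7 array, a log2 difference of 5.00 (31.9-fold). The modifier Isg15 had 12834 with interferon and 822 without it, a difference of 3.89, and replicates of Isg15 at 48 h differed by at most 2.25. Gm9706, a gene model close in sequence to Isg15 whose probe set may not tell them apart, was at 2248 with interferon and 80.1 without it. The other kept members, the E1 enzyme Uba7, the E2 enzyme Ube2l6 and the E3 ligase Trim25, differed by 0.30 to 0.43, so 2 of 5 members were past 2-fold.

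Antiviral effectors and RNA or DNA sensors had a median difference of 1.76 over 17 members, against -0.04 over all genes. Of these, 10 were at least 2-fold higher and 0 were lower. Ifit3, a binder of foreign RNA, had 1819 with interferon and 81.2 without it, a difference of 3.87. Its relative Ifit1 had 1515 with interferon and 93.3 without, and Ifit2 had 1286 with interferon and 304 without. The exonuclease Isg20 was at 4659 with interferon and 409 without, and Rsad2 (viperin), which makes a chain-terminating nucleotide, was at 1862 with interferon and 161 without. The virus-trapping GTPase Mx1 had 1428 on the interferon array and 147 on the Ag-B7 array, and Mx2 had 760 with interferon and 152 without. The RNA sensor Ifih1 (MDA5), the ligase Trim30a and the kinase Cmpk2 differed by 1.76, 1.98 and 1.62. Another probe set of Trim30a differed by 0.02. The sensor kinase Eif2ak2 (PKR), the nuclear body genes Pml and Sp100 and the RNA editor Adar differed by 0.56 to 0.85, while Samhd1, Trim21 and Tor3a were at -0.41 to -0.25.

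Among interferon-induced membrane, secreted and nuclear proteins, 5 of 18 were at least 2-fold higher, 2 of them beyond their replicate differences, 0 were lower and the median was 0.41. Ifitm3, which blocks virus entry at endosomes, had 2372 with interferon and 207 without, a difference of 3.26. Ifi27l2a, a mitochondrial protein gene, was bright on both arrays, at 21836 with interferon and 10069 without, and its difference of 1.11 was below the 2.54 that replicates at 48 h reached. The DNA-binding protein gene Ifi209 had 2434 with interferon and 1065 without (1.16, against at most 2.09 between replicates). Ifi35 had 4175 with interferon and 1649 without (1.32, against at most 0.64). The chemokine Cxcl10 was dim, at 234 with interferon and 61.9 without. Ifitm1, Ifitm2, Slfn2 and Ly6e differed by -0.01 to -0.47 and so were no higher with interferon.

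Of the transcription factors of the pathway, 1 of 7 was at least 2-fold higher and 1 was lower. Irf7, the factor that amplifies the interferon response, had 3463 with interferon and 910 without, a difference of 1.87, against at most 1.62 between replicates at 48 h. Another probe set of Irf7 differed by 0.65. Irf9, the DNA-binding part of ISGF3, had 3019 with interferon and 2423 without, a difference of 0.31. Irf1, a factor shared with the interferon-gamma response, was lower with interferon, at 2029, against 4717 without it (-1.20), a difference that replicates of Irf1 also reached (1.26).

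Groups that respond to interferon in many cells but were near level at 72 h were the interferon-inducible GTPases and the MHC class I genes. No GTPase of 8 was 2-fold higher, with a median of -0.04 (0.55 with spike-in scaling). Gbp2 was lower, at 2996 with interferon and 6201 without (-1.04, against at most 1.27 between replicates). Against the same Ag-B7 array, 5 of the 8 GTPases were at least 2-fold lower with IL12 and 0 higher (median -1.48). With TSA 0 were past 2-fold either way (median 0.11). The direct difference of the interferon array had a median of 1.11 from the IL12 array and -0.16 from the TSA array. Of 12 genes of MHC class I presentation, 0 were past 2-fold either way and the median was -0.10 (0.49 with spike-in scaling). The light chain B2m had 37657 with interferon and 45514 without, and the peptide transporter Tap1 had 13177 with interferon and 12551 without. At 48 h the GTPases had a median of 0.61, with 7 of 8 above 0, 0 called by limma and 5 higher at an unadjusted p below 0.05. The MHC class I genes had a 48 h median of 0.20, with 11 of 12 above 0, 0 called by limma and 2 higher at an unadjusted p below 0.05. Receptor and kinase genes of the pathway were also close to level, with Ifnar1 at -0.16, Ifnar2 at -0.77, Jak1 at -0.41 and Tyk2 at -0.32. Of 11 feedback inhibitors other than Usp18, which was counted with the ISG15 system, 0 were higher. Socs1 was at 2113 with interferon and 2360 without, and Socs3 was lower at 321 with interferon, against 759 without. At 48 h these 11 genes had a median of 0.06, with 0 called by limma and 2 higher at an unadjusted p below 0.05. Socs1 then had 2784 to 3922 with interferon and 898 to 2681 without, groups that did not overlap (1.02 ± 0.31, limma adjusted p = 0.378).

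**Figure D2:**
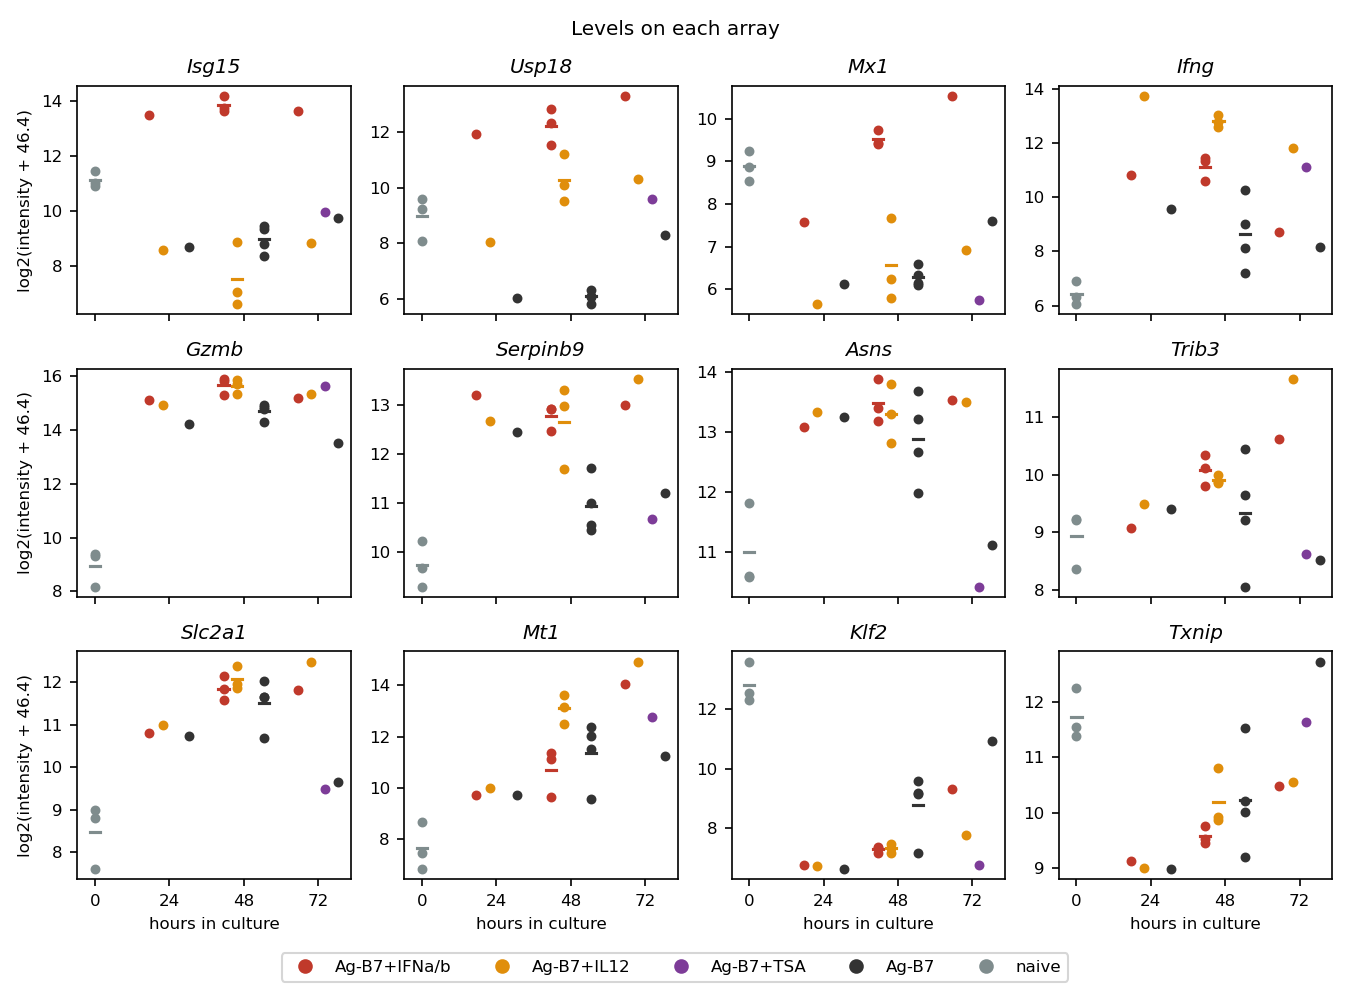
Levels of 12 genes as log2(intensity + 46.4) on every array, by hours in culture. Each point is 1 array, colours give the groups, horizontal bars are means of replicated groups, and groups of the same hour are set side by side. Isg15, Usp18 and Mx1 are higher on every interferon array than on the Ag-B7 arrays of the same hour, while Asns, Trib3 and Slc2a1 are low on the Ag-B7 array of 72 h.

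The replicated 48 h arrays, none of which enters the 72 h comparison, give the same contrast with a test. At 48 h, 26 genes rose (0.414%) and 1 fell (0.0159%) with interferon at a limma adjusted p below 0.05. Of the 26, 18 were at least 2-fold higher at 72 h, which is 69.2% of the 48 h list and 7.29% of the 72 h list, and all 26 were above 0 at 72 h. The count of genes higher at both times was 11 to 18 when 1 array of 48 h was left out, with 11 without Ag-B7+IFNa/b replicate 2. The difference of each of the 18 at 72 h was larger than any replicate difference of that gene, in a list whose 48 h test already favours genes that vary little. Of all 247 genes higher at 72 h, 178 (72.1%) had a 48 h difference above 0, against 50.5% of all genes, and 48 (19.4%) rose at an unadjusted limma p below 0.05, against 2.6% of all genes. Of the 224 lower genes, 149 (66.5%) were below 0 at 48 h against 49.5% of all genes, and 26 (11.6%) reached the unadjusted threshold against 1.96%. The 48 h groups did not overlap, in the same direction, for 39 (15.8%) of the higher genes against 3.28% of all genes, and for 17 (7.59%) of the lower genes against 3.46%. Called the opposite way by limma at 48 h were 0 genes, with 0 of the higher and 2 of the lower genes opposite at an unadjusted p below 0.05.

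**Figure D3:**
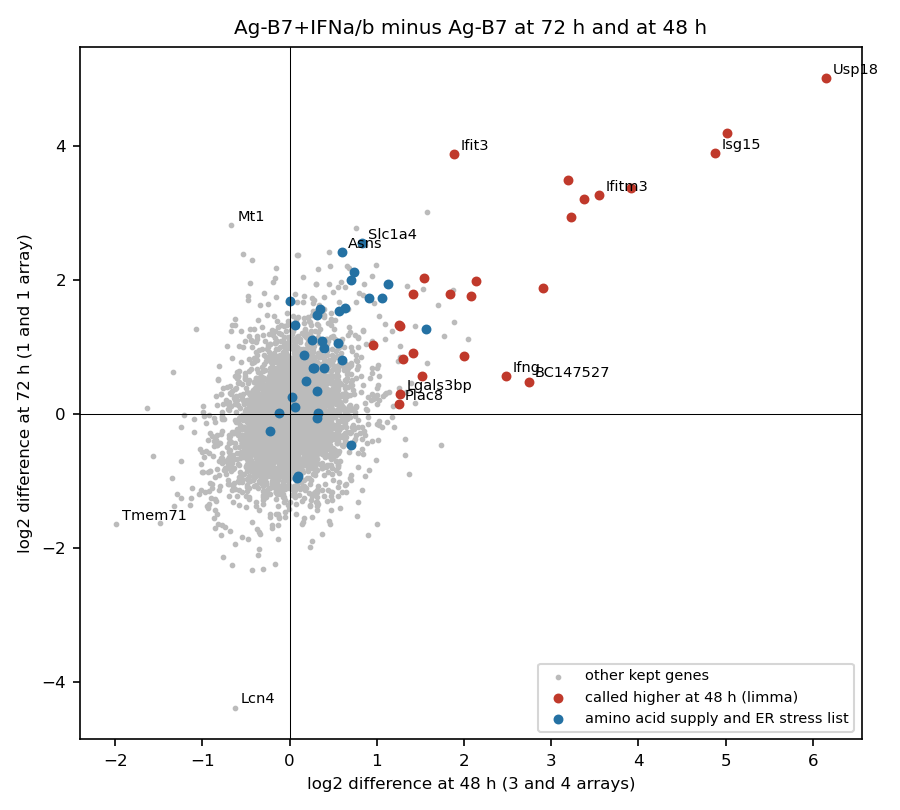
Log2 difference with interferon at 72 h (vertical axis, 1 array each) against that at 48 h (horizontal axis, 3 arrays of Ag-B7+IFNa/b and 4 of Ag-B7) for 6279 genes. Red points are genes called higher at 48 h, all of them above 0 at 72 h; blue points are the amino acid list, with 17 members past 2-fold at 72 h and 0 called at 48 h.

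Usp18, Isg15 and Irf7 were among the genes called at 48 h. Usp18 had 2906 to 7301 on the 3 interferon arrays and 10.1 to 34.2 on the 4 Ag-B7 arrays (log2 difference 6.15 ± 0.41, standard error, limma adjusted p = 3.2e-07). Isg15 had 12842 to 18499 with interferon and 281 to 657 without it (4.88 ± 0.41, limma adjusted p = 4.28e-06). Irf7 rose by 2.90 ± 0.34 (limma adjusted p = 0.000184), with 893, 1082 and 944 on the interferon arrays and 74.6 to 126 on the Ag-B7 arrays. For these genes the groups did not overlap. Their calls held under every alternative tried.

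Over time the 26 genes had median differences of 1.46 at 24 h, 2.04 at 48 h and 1.78 at 72 h. In 19 of the 26 the difference at 72 h was smaller than at 48 h, but these genes were chosen on their 48 h difference, which favours large values at that time, and 16 genes were higher at all 3 times (past 2-fold at 24 h and 72 h, called at 48 h). At 24 h, 106 of all genes (1.69%) were past 2-fold higher and 76 (1.21%) lower. Isg15 had differences of 4.80 at 24 h, 4.88 at 48 h and 3.89 at 72 h, and Mx1 had 1.45, 3.23 and 2.93. Ifit3 was among those with a larger difference at 72 h: 1.05 at 24 h, 1.89 at 48 h and 3.87 at 72 h. Its interferon arrays had 163 at 24 h, 201, 243 and 353 at 48 h and 1819 at 72 h, and its Ag-B7 arrays had 54.8 at 24 h, 24.1 to 47.9 at 48 h and 81.2 at 72 h. The 48 h call of Ifit3 (limma adjusted p = 0.0254) was lost on leaving out any array but Ag-B7 replicate 3, with adjusted p from 0.0548 to 0.218.

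Levels at 72 h were often above those at 48 h on both arrays. Among the 18 genes higher at both times, the interferon array of 72 h lay above all 3 interferon arrays of 48 h for 13 genes, and the Ag-B7 array of 72 h lay above all 4 Ag-B7 arrays of 48 h for 13 genes. Over all 6279 genes these counts were 2385 for the interferon array and 2279 for the Ag-B7 array. Irf7 shows both, at 3463 on the interferon array of 72 h, above 893 to 1082 at 48 h, and at 910 on the Ag-B7 array of 72 h, above 74.6 to 126 at 48 h.

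The 8 genes called at 48 h that were not 2-fold higher at 72 h were Plac8, Lgals3bp, Adar, Lgals9, Slfn1, Ifng, BC147527 and H2-T24. Plac8 had 54319 with interferon and 49418 without it at 72 h (0.14), against 38394 to 54116 with interferon and 14082 to 27859 without it at 48 h. The lectin gene Lgals9 had 8313 with interferon and 4693 without at 72 h, and 5261 to 6711 with interferon and 2139 to 2668 without at 48 h. Adar, Lgals3bp and the growth regulator Slfn1 likewise had Ag-B7 values of 1731, 2585 and 2301 at 72 h, above the highest Ag-B7 values of 48 h (963, 1407 and 931). In these 5 genes the interferon array of 72 h was at or above the lowest interferon array of 48 h, and the Ag-B7 array was above all 4 of 48 h. The 48 h calls of all 5 were lost under spike-in scaling (limma adjusted p from 0.152 to 0.434). On leaving out single arrays (limma adjusted p from 0.0512 to 0.138) Plac8 lost its call without interferon replicates 1 or 2, Lgals9 without interferon replicate 1, Lgals3bp without interferon replicates 2 or 3 or Ag-B7 replicate 1, and Slfn1 without any single interferon replicate or Ag-B7 replicate 3. In a bulk culture fewer cells of a type and less RNA per cell cannot be told apart.

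Ifng, the gene of interferon-gamma, was below its 48 h levels on the interferon array, while the Ag-B7 array lay within its 48 h range. It had 372 with interferon and 237 without at 72 h (0.56), against 2534, 1498 and 2742 with interferon and 100 to 1171 without at 48 h (2.48 ± 0.49, limma adjusted p = 0.0278). That call was lost on leaving out any array but Ag-B7 replicate 4 (adjusted p from 0.0546 to 0.193). At 72 h the IL12 array had 3534 and the TSA array 2172.

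**Figure D4:**
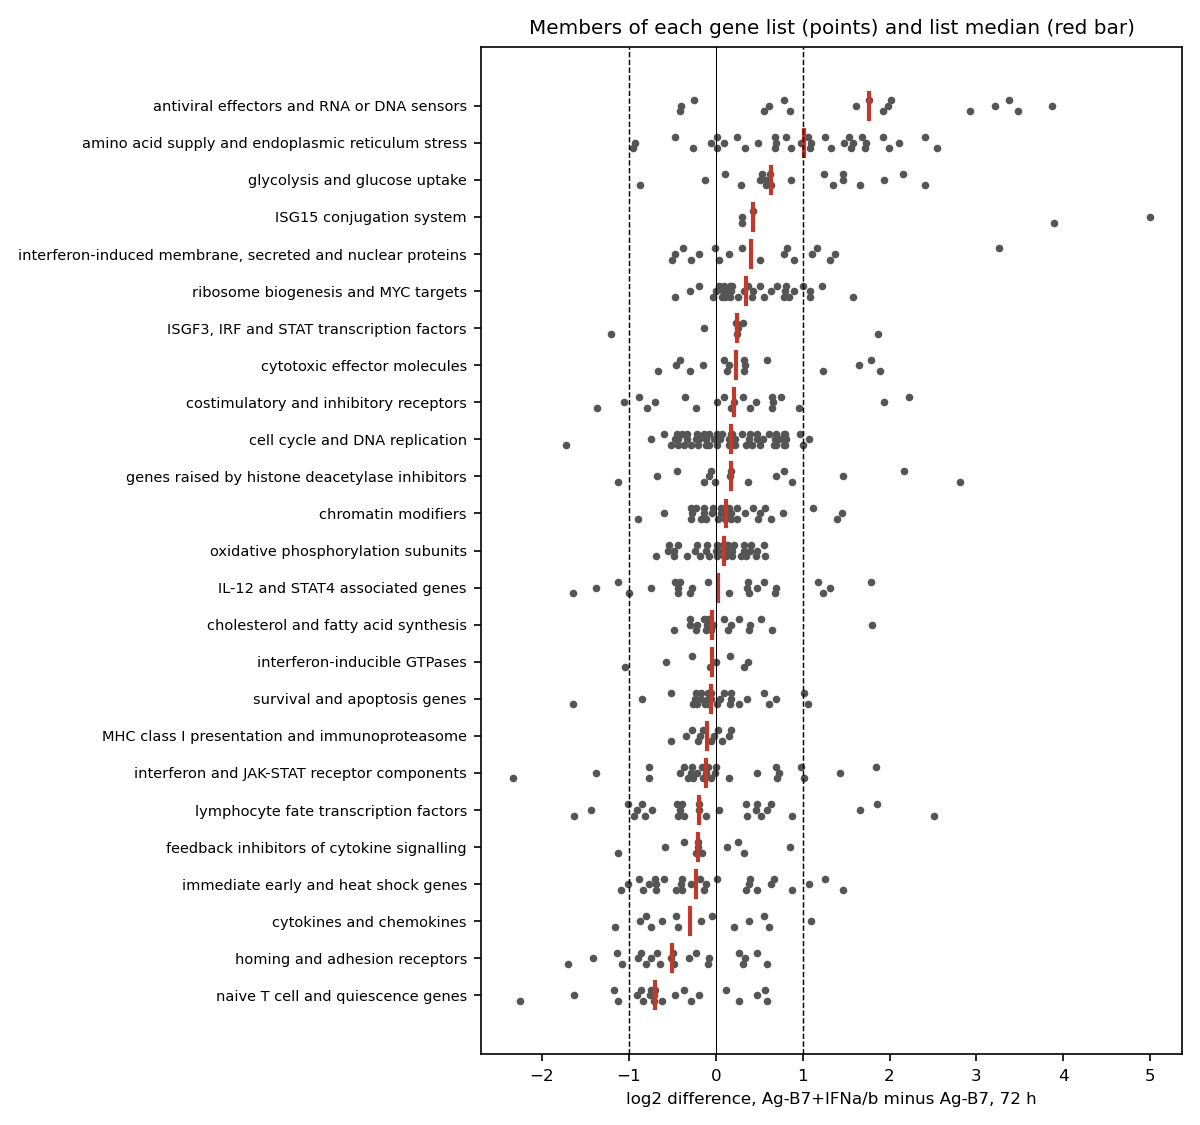
Log2 difference, Ag-B7+IFNa/b minus Ag-B7 at 72 h, of each kept member (points) of 25 gene lists, with the list median as a red bar and dashed lines at 2-fold, 1 array each. The antiviral list has the highest median (1.76), followed by the amino acid list (1.02) and glycolysis (0.64); the naive T cell list has the lowest (-0.70), and with spike-in scaling it was -0.11 while the median of all genes was 0.52.

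Genes of amino acid supply and endoplasmic reticulum stress were the list with the most members past 2-fold. Of its 34 kept members, 17 were at least 2-fold higher at 72 h, 0 were lower and the median was 1.02. For 12 of the 17 the difference exceeded every replicate difference at 48 h. Asns, which makes asparagine, had 11811 with interferon and 2183 without (2.41, against at most 1.71 between replicates). The neutral amino acid transporter Slc1a4 had 1221 with interferon and 170 without (2.55, against at most 1.06), and the large neutral amino acid transporter Slc7a5 had 8410 with interferon and 2076 without (1.99, against at most 2.14). The partner chain Slc3a2 and the cationic transporter Slc7a1 differed by 1.53 and 1.93.

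Regulators of the amino acid response were also higher. Atf4, the central transcription factor of this response, had 11374 with interferon and 3763 without (1.58). Ddit3 (CHOP) had 2306 with interferon and 665 without (1.73), and Trib3, a pseudokinase induced by Atf4, had 1533 with interferon and 320 without (2.11, against at most 2.38 between replicates). Cebpb and Atf5 differed by 1.72 and 1.33. Atf3 had 1137 with interferon and 446 without (1.26, against at most 2.39 between replicates), while its other probe sets differed by 0.76 and -0.09. Charging enzymes for transfer RNA were split: Cars, Mars1, Gars and Aars differed by 1.06 to 1.68, and Wars, the tryptophan enzyme, by -0.95. The folding genes of the endoplasmic reticulum stayed near level, with Hspa5 at 0.49, Hsp90b1 at 0.10, Dnajb9 at 0.01 and Pdia4 at -0.47.

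Of the amino acid genes 0 were called by limma at 48 h (8 higher and 0 lower at an unadjusted p below 0.05), where their median was 0.34, and their median at 24 h was 0.00. At 48 h Asns had 9303, 10733 and 15095 with interferon and 3996, 6479, 9486 and 13149 without (0.60 ± 0.37, limma adjusted p = 1.0), so the groups overlapped. The Ag-B7 array of 72 h, at 2183, was below all 4 of these. For 12 of the 17 higher members the Ag-B7 array of 72 h lay below all 4 Ag-B7 arrays of 48 h, and the interferon array lay above all 3 interferon arrays of 48 h for 3 and below them for 8. Over all genes the Ag-B7 array was below for 1562, and the interferon array above for 2385 and below for 1693. Among all 247 genes higher at 72 h these counts were 133, 116 and 44. Such genes were chosen for lying above the same Ag-B7 array, which favours low values on it. On the IL12 array the list's median against the same Ag-B7 array was 1.05 and on the TSA array 0.54, and the direct difference between the interferon and IL12 arrays had a median of -0.06.

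Glycolysis and glucose uptake genes were higher as well, 8 of 19 past 2-fold, 0 lower, with a median of 0.64. For 7 of the 8 the difference exceeded every replicate difference. Hk2, the first kinase of glycolysis in activated T cells, had 3308 with interferon and 585 without (2.41), although another probe set of Hk2 differed by 0.15. The glucose transporter Slc2a1 had 3528 with interferon and 755 without (2.16), and the phosphofructokinase Pfkp had 11476 with interferon and 2965 without (1.94). Ldha and Aldoa differed by 0.58 and 0.51. At 48 h the median was -0.02 with 0 calls by limma, and 0 higher and 1 lower at an unadjusted p below 0.05. For 7 of the 8 the Ag-B7 array of 72 h was below all Ag-B7 arrays of 48 h: Slc2a1 had 1611 to 4130 on those, against 755 at 72 h. It was also below them for 133 of all 247 higher genes, which were chosen for lying above it. The IL12 array had a median of 1.44 for this list and the TSA array -0.01.

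Ribosome biogenesis and MYC targets had 5 of 34 higher, 0 lower and a median of 0.35. Myc itself had 4508 with interferon and 2109 without (1.08, against at most 1.96 between replicates), and the translation regulator Eif4ebp1 had 2144 with interferon and 684 without (1.58). The metallothioneins, which bind metal ions, were also higher: Mt1 had 16912 with interferon and 2370 without (2.81, against at most 2.84 between replicates), and Mt2 had 23448 with interferon and 5177 without. The IL12 array was higher still for both, at 31217 for Mt1 and 45451 for Mt2, and the TSA array had 6854 for Mt1 and 7782 for Mt2. Cell cycle genes were near level as a list, with 2 of 59 higher, 1 lower, 36 above 0 and a median of 0.18. Oxidative phosphorylation subunits had 0 of 40 past 2-fold. Mki67, Cdk1 and Top2a differed by 0.02 to 0.18, and the replication genes Cdc45, Mcm4 and Pola1 by 1.07, 0.73 and 0.69. Rrm2 was at -0.36 and the inhibitor Cdkn2a at -1.72. Of 32 chromatin modifiers 3 were higher, among them the helicase Hells (1.45) and the Polycomb subunit Suz12 (1.12). Other probe sets of Suz12 differed by 0.34 and 0.50. Cholesterol and fatty acid synthesis had 1 of 20, the desaturase Scd1, at 2345 with interferon and 640 without (1.80, against at most 3.12 between replicates).

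Of 16 cytotoxic effector genes 4 were at least 2-fold higher, all beyond their replicate differences, and 0 were lower; the median was 0.23. Gzmb, the main granule protease, had 37108 with interferon and 11775 without (1.65, against at most 0.63 between replicates). At 48 h it had 61005, 58059 and 40572 with interferon and 20017, 30967, 29806 and 27778 without, groups that did not overlap (0.97 ± 0.27, limma adjusted p = 0.234). Serpinb9, the inhibitor that shields killer cells from granzyme B, had 8124 with interferon and 2323 without at 72 h (1.79) and was called at 48 h (1.84 ± 0.35, limma adjusted p = 0.0234), a call lost on leaving out any array but Ag-B7 replicate 4 (adjusted p from 0.061 to 0.166). The death ligand Fasl had 1133 with interferon and 453 without (1.24), and the dimmer Gzmd had 252 with interferon and 34.5 without. The pore protein Prf1 was at 539 with interferon and 481 without.

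Of 21 costimulatory and inhibitory receptor genes, 2 were higher and 2 lower (median 0.21), and of 27 interferon and JAK-STAT receptor components, 3 were higher and 2 lower (median -0.11). The costimulatory receptors Tnfrsf4 (OX40) and Tnfrsf9 (4-1BB) differed by 2.22 and 1.94, with replicate differences of up to 3.23 and 1.87, and another probe set of Tnfrsf9 differed by 0.14. The lectin receptor chain Klrd1 was lower, at 10774 with interferon and 27859 without (-1.37, against at most 2.60 between replicates). Il10ra, the IL-10 receptor chain, had 2196 with interferon and 576 without (1.85, against at most 2.14 between replicates). Stat3, its signal transducer, had 11200 with interferon and 4128 without (1.43, against at most 1.14). The IL-6 receptor chain Il6ra was lower, at 111 with interferon and 749 without. The IL-18 receptor chain Il18r1 was lower as well, at 754 with interferon and 2032 without (-1.38, against at most 1.65). Among 28 lymphocyte fate factors, 3 were higher and 3 lower. Bhlhe40, a regulator of T cell cytokine production, had 7930 with interferon and 1356 without (2.51), Eomes, a factor of effector and memory CD8 cells, had 677 with interferon and 153 without (1.86, against at most 2.75 between replicates), and Prdm1 (Blimp-1), a factor of terminal differentiation, had 435 with interferon and 106 without (1.66). Id3, an inhibitor linked to memory precursors, had 1622 with interferon and 4489 without (-1.44).

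Genes of naive and quiescent T cells were the lowest list, with 4 of 22 at least 2-fold lower, 0 higher and a median of -0.70; with spike-in scaling the median was -0.11, against 0.52 for all genes. Txnip, which restrains glucose uptake, had 1387 with interferon and 6784 without (-2.25, against at most 2.35 between replicates), and another probe set of Txnip differed by 0.04. Klf2, the factor of quiescence and lymph node recirculation, had 590 with interferon and 1922 without (-1.63, against at most 2.45), and the diacylglycerol kinase Dgka had 6374 with interferon and 13864 without (-1.12, against at most 0.49). In all 4 lower members the Ag-B7 array of 72 h was above all Ag-B7 arrays of 48 h, as it was for 17 of all 22 members. It was above them for 2279 of all 6279 genes. Of the 224 genes lower at 72 h, chosen for lying below it, it was above for 153. Klf2 had 94.4, 114 and 117 with interferon at 48 h and 94.5, 514, 526 and 724 without. Homing and adhesion receptors had 4 of 22 lower, 0 higher and a median of -0.50, a sign that spike-in scaling turned to 0.01. The chemokine receptor Cxcr3 had 591 with interferon and 1644 without (-1.41, against at most 1.66 between replicates). The gut-homing integrin chain Itgb7 had 9738 with interferon and 21462 without (-1.14, against at most 1.46). Its dim partner Itgae had 72.9 with interferon and 341 without.

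The lowest difference of all genes was that of Lcn4. Lcn4, a lipocalin gene, had 26.3 with interferon and 1468 without (-4.38, against at most 2.12 between replicates). At 48 h Lcn4 had 20.7 to 83.3 with interferon and 35.3 to 308 without. Cd7, a T cell surface protein, had 927 with interferon and 4540 without (-2.24, against at most 2.22), Ppdpf had 2037 with interferon and 7963 without (-1.94, against at most 1.03) and Chpf, a chondroitin-synthesis gene, had 338 with interferon and 1153 without (-1.64, against at most 0.43). Pcp2 was at -1.60 on the brightest probe set and at 1.26 on another, so its direction is uncertain. Tmem71 was the gene lower at both times, at 932 with interferon and 3002 without at 72 h, and at 71, 37.1 and 186 with interferon and 298 to 895 without at 48 h (-1.99 ± 0.38, limma adjusted p = 0.022). That call was lost without interferon replicates 1 or 2 or Ag-B7 replicates 1 or 3 (adjusted p from 0.0561 to 0.202).

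IL12 and TSA arrays of 72 h were compared with the same Ag-B7 array, so the 3 differences share it and are set side by side only. With IL12, 328 genes (5.22%) were higher and 260 (4.14%) lower; with TSA, 445 (7.09%) were higher and 563 (8.97%) lower. Past 2-fold the same way on the IFNa/b, IL12 and TSA arrays were 37 higher genes (0.589%) and 31 lower genes (0.494%). Gzmb was one of the 37, at 37108 with IFNa/b, 41438 with IL12 and 50455 with TSA, against 11775 with Ag-B7 alone. Slc7a5, Slc1a4, Hk2, Mt1 and Usp18 were others, as was Bcat1, a branched-chain amino acid enzyme (2391 with IFNa/b, 2224 with IL12 and 1785 with TSA, against 688 with Ag-B7). Chchd10, a mitochondrial protein gene, had 10648, 8664 and 10546 on the IFNa/b, IL12 and TSA arrays, against 3117 on the Ag-B7 array, while at 48 h its interferon and Ag-B7 arrays overlapped (8364 to 9727 with interferon and 7041 to 9205 without).

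Shared lower genes included Klf2, with 590 on the IFNa/b array, 170 on the IL12 array and 60 on the TSA array, against 1922 with Ag-B7 alone. The Myc antagonist Mxd4 had 1561 with IFNa/b, 1798 with IL12 and 795 with TSA, against 5193 with Ag-B7, and the Ras inhibitor Rasa3 had 2201 with IFNa/b, 1438 with IL12 and 1000 with TSA, against 5494 with Ag-B7. Lats2, a kinase of the Hippo pathway, had 650 with IFNa/b, 628 with IL12 and 653 with TSA, against 1688 with Ag-B7. Ikbke, a kinase of innate signalling, had 883 with IFNa/b, 824 with IL12 and 756 with TSA, against 2305 with Ag-B7. The error of the Ag-B7 array is common to the 3 differences of each gene. Replicates at 48 h differed by up to 2.61 for Mxd4 and 1.49 for Lats2, whose IFNa/b differences were -1.70 and -1.32.

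**Figure D5:**
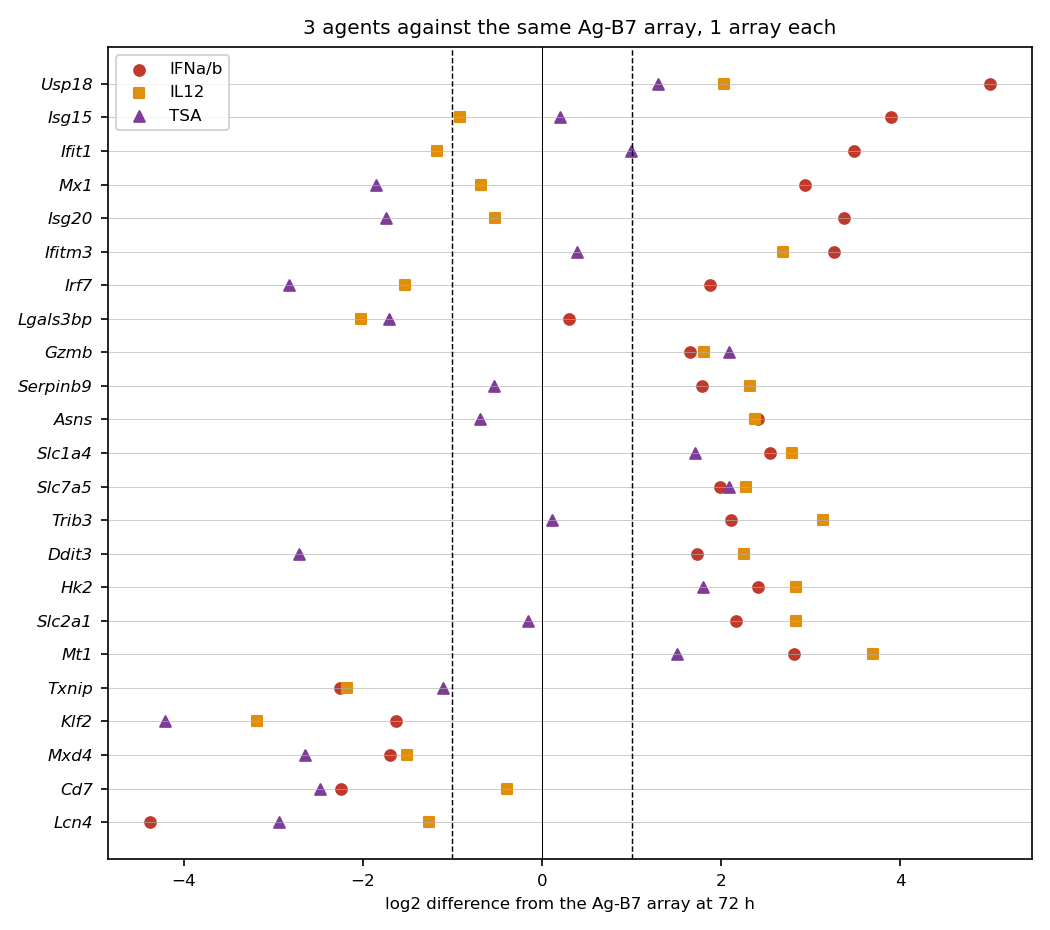
Log2 difference from the Ag-B7 array at 72 h for the IFNa/b (red circle), IL12 (orange square) and TSA (purple triangle) arrays, 1 array each and 1 shared Ag-B7 array, for 23 genes. Mx1, Isg20 and Irf7 lie at 1.87 to 3.37 with IFNa/b and below 0 with IL12 and TSA, whereas Gzmb, Slc1a4, Slc7a5, Hk2 and Mt1 lie past 2-fold higher with all 3 agents.

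The genes called higher at 48 h, 9 of them on the antiviral list, were set side by side for the 3 agents. Over the 26 genes called at 48 h the median at 72 h was 1.78 with IFNa/b, -0.61 with IL12 and -0.53 with TSA, and 22 of the 26 were higher on the IFNa/b array than on the IL12 array. Mx1 had 1428 with IFNa/b, 74.3 with IL12 and 7.24 with TSA, against 147 with Ag-B7. Irf7 had 3463 with IFNa/b, 285 with IL12 and 88.8 with TSA, against 910 with Ag-B7. Ifi27l2a, which was not among the 26 (48 h limma adjusted p = 0.0636), had 21836 with IFNa/b, 1689 with IL12 and 1320 with TSA, against 10069 with Ag-B7. Of the 26, 19 were below 0 with IL12 and 17 with TSA, and 5 were at least 2-fold higher with IL12: Usp18, Ifitm3, Ifng (3.66), Serpinb9 (2.32) and the proton-sensing receptor gene Gpr65 (2.04). Ifitm3 had 2372 on the IFNa/b array, 1584 on the IL12 array and 287 on the TSA array, against 207 on the Ag-B7 array, and Usp18 had 10005 with IFNa/b, 1238 with IL12 and 732 with TSA, against 269 with Ag-B7. Directly between the IFNa/b and IL12 arrays, 206 genes (3.28%) were higher with IFNa/b and 249 (3.97%) were lower. The IL-12 and STAT4 list had 4 of 24 higher and 4 lower with IFNa/b (median 0.03), and 17 higher and 0 lower with IL12 (median 1.64).

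Genes past 2-fold with IFNa/b and within 0.5 of Ag-B7 on the other 2 arrays numbered 21 higher and 39 lower. Beside Gm9706, the higher ones included Hells (2489 with IFNa/b, 1006 with IL12 and 883 with TSA, against 885 with Ag-B7), the mitochondrial RNA nuclease Pnpt1 (1259 with IFNa/b, 467 with IL12 and 615 with TSA, against 558 with Ag-B7) and the cap methyltransferase Cmtr1 (2913 with IFNa/b, 1272 with IL12 and 1100 with TSA, against 1350 with Ag-B7). Cmtr1 had 1914 to 2623 with interferon and 1179 to 1568 without at 48 h, and Pnpt1 had 1185 to 1432 with interferon and 813 to 1072 without. These groups did not overlap, but neither gene was called (limma adjusted p = 0.945 for Cmtr1 and 0.936 for Pnpt1). Among the lower ones were the GTPase Rac2 (17351 with IFNa/b, 26966 with IL12 and 31596 with TSA, against 35738 with Ag-B7) and the copper chaperone Atox1 (2709 with IFNa/b, 4242 with IL12 and 6829 with TSA, against 5708 with Ag-B7).

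The cells carried the label's identity on both arrays. All 13 CD8 T cell identity genes lay above the 40th percentile of both arrays, and 0 differed 2-fold. Cd8a had 9650 with interferon and 9430 without (0.03) and was the 1 member above 0. The list's median was -0.32, with Cd247, a signalling chain of the T cell receptor, at -0.74 and Cd8b1 at -0.56, and its summed intensity was 127974 with interferon and 161532 without. Markers of other cells were 2-fold higher with interferon in 0 of 11 kept B cell, 12 myeloid and dendritic and 3 NK cell genes, and lower in 1, 3 and 0 (Cd79b; C1qb, C1qc and Mpo). Summed intensity of all 14 B cell genes on the array, kept or not, was 15228 with interferon and 18629 without. For all 19 myeloid genes it was 9252 with interferon and 10755 without. Sums for NK cells (711 with interferon and 604 without), CD4 and gamma-delta T cells (373 with and 614 without), erythroid cells and platelets (768 with and 589 without) and stromal cells (3223 with and 3589 without) were lower than these. The myeloid gene Lyz2 was at 8.02 with interferon and 8.25 without, and 5 of 14 B cell and 9 of 19 myeloid genes on the array lay below the 40th percentile on both arrays. Above it on both were 9 B cell and 6 myeloid genes, among them the antibody heavy chain gene Ighm at 10802 with interferon and 14373 without, and the protease gene Ctss at 6008 with interferon and 6636 without. The part of other cells in the results was not tested. The 3' to 5' ratio of actin probe sets, a sign of RNA quality, was 1.12 on the interferon array and 1.11 on the Ag-B7 array.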

How the data were processed

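RNA of the 20 samples was hybridised to 1-colour Affymetrix arrays, 1 sample each. The authors deposited intensity values on a linear scale, 1 signal for each of 12488 probe sets, made with MAS5 per the submitters' processing notes; its version, its scaling target and a genome build were not given in the sources used here. Every array had nearly the same trimmed mean (2% left out at either end), 999.76 to 999.86, so the deposited values had been scaled.

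Of the probe sets, 10833 had 1 gene symbol, 396 had several, 1193 were not listed in the platform annotation and 66 were controls. The probe set with the highest mean stood for a gene (2073 of 8251 genes had several). Values were transformed to log2(intensity + 46.4), the median over arrays of the 20th percentile. Genes above the 40th percentile on 3 or more of 13 replicated arrays, none of them a 72 h array, were kept. These 13 arrays were fitted with group means and a variance trend in limma 3.58.1 under R 4.3.3 (9 residual and 7.62 prior degrees of freedom), two-sided, with Benjamini-Hochberg adjustment over 6279 genes and calls at an adjusted p below 0.05. The labels call the replicates biological. The fit was tested on simulated data.

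The 25 theme lists, 8 marker lists and the members of the comparison were chosen with earlier results of these data known. Named genes followed a rule: the 12 largest rises and 12 largest falls at 72 h among brighter genes, up to 4 members past 2-fold of each list, up to 8 genes a direction shared by the 3 agents or found with IFNa/b alone, up to 12 a direction shared with 48 h, up to 8 a direction called at 48 h only, and a fixed list of 24 genes. Other members of a list are named where its count is described, after their values were seen. Replicate numbers were tested as pairs: the correlations of same-numbered arrays were 0.11, -0.04 and -0.10, so they were not used as a block. Some differently numbered pairs were higher. Interferon replicate 1 with Ag-B7 replicate 2 had 0.28, 2 with 3 had 0.28 and 3 with 4 had 0.45. The remaining pairs were at -0.27 to -0.02. Whether arrays with different numbers came from 1 experiment was not tested. Probe sets of close relatives (Ifit, Mx, Mt, Gzm and H2 genes) may not tell family members apart. Alternatives were pseudocounts, filters, normalizations, probe set means, array sets and each replicate left out.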

Additional observations from a re-analysis of the deposited data

Results flagged for a closer look

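Among the 105 named genes, 6 had 1 of the 4 Ag-B7 arrays of 48 h far from the other 3, measured as the gap to the nearest array over the whole range (limit 0.829); chance flags about 1 in 20 groups. Replicate 4 was lowest for the copper chaperone Atox1 (0.837) and the metallothionein Mt2 (0.829). Replicate 3 was lowest for the cap methyltransferase Cmtr1 (0.841). Replicate 1 was lowest for Ifi35 (0.834) and highest for Ifi209 (0.882), both interferon-induced genes. Replicate 2 was highest for Il7r, the IL-7 receptor chain (0.863). The arrays of 72 h have no replicates and could not be examined this way.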

How the results depend on the processing

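With 1 array a side the precision at 72 h rests on those arrays alone. Among the 105 named genes no setting reversed a called value, though spike-in scaling turned the sign of some list medians. Sizes and calls did change. With probe set means the 72 h difference went from 1.2 to 0.27 for Clpb, from 1.0 to 0.32 for Pold1 and from -1.6 to -0.17 for Pcp2. Over the settings, 63 results of named genes at 48 h lost their limma call, 18 gained one and 1806 were the same. Daxx lost its 48 h call on leaving out any single array (limma adjusted p from 0.0539 to 0.282). Trim30a lost it with probe set means (limma adjusted p = 0.0937). Under a pseudocount of 200 the genes past 2-fold at 72 h numbered 134 higher and 74 lower, and 14 higher and 17 lower on all 3 agents' arrays. Under spike-in scaling they were 998 and 58, and 108 and 5 (94.5% of calls higher, against 52.4% in the reported setting and 64.4% with the pseudocount of 200). At 3-fold they were 77 and 36, and 7 and 3. Without the filter 52 genes were lower with all 3 agents.

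At 48 h, 1 gene was called lower, against 2 with quantile normalization, 6 with only the 10 stimulated arrays and 7 with the replicate number as a block. Genes lower at both times were 2 with the 10 arrays and 6 with the block, which left 33 called higher (26 without it). The cause was not tested. Leaving out 1 array of 48 h gave 14 to 26 genes called higher (14 without Ag-B7+IFNa/b replicate 2, 15 without replicate 1) and 0 to 6 called lower (6 without Ag-B7 replicate 4), and 11 to 18 higher and 0 to 5 lower at both times.

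Spike-in scaling moved list medians by its shift: antiviral 2.34, amino acid 1.61, glycolysis 1.23, membrane and secreted 0.99, ribosome 0.93, transcription factors of the pathway 0.82, costimulatory 0.80, cell cycle 0.77, cytotoxic 0.75, chromatin 0.71, histone deacetylase inhibitor genes 0.70, oxidative phosphorylation 0.68, IL-12 0.59, cholesterol 0.55, GTPases 0.55, survival 0.50, MHC class I 0.49, receptors 0.48, fate factors 0.40, homing 0.01 and naive -0.11. The antiviral median was 1.45 with a pseudocount of 200 and 1.19 with probe set means. With the stricter filter the ISG15 median was 2.16 and the membrane and secreted median 0.78.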

Other observations

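Probe sets without a single gene symbol also differed at 72 h. Of 932 that passed the same filter, 24 (2.58%) were at least 2-fold higher with interferon than with Ag-B7 alone and 52 were lower. The largest rise was 2.19 and the largest fall was -2.4. Of 34 control probe sets without a target in the cells, 1 (2.94%) was higher and 2 were lower.

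When a gene had other probe sets, these did not always follow the brightest. Of the 247 higher genes 60 had another one, all of the same sign in 36, and in 3 a probe set was past 2-fold in the opposite direction. Of the 224 lower genes 68 had another, all of the same sign in 49, with 1 past 2-fold in the opposite direction (the Purkinje cell gene Pcp2).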
